A study of Mus musculus with 2 samples.

Results

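The genes described here are 35 nuclear genes for subunits of respiratory complexes II, III and IV, of cytochrome c and of complex V, the ATP synthase. They were chosen by a fixed list of symbols, matched to the gene identifiers of both gene tables, and all 35 had a row among 43346 genes. Complex II gave 4 genes, complex III 9, cytochrome c 1, complex IV 6 and complex V 15. Subunits of complex IV that exist as tissue-specific pairs of genes were left out of the list and are given separately further on.

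Both libraries belong to 1 group: newborn mouse skeletal muscle, postnatal day 0, of the strain B6NCrl, with no treatment named and no sex collected. Each library was made from 13 pg of total RNA, the amount of 1 cell-equivalent, taken from a portion of muscle of 1 pup, so it samples tissue RNA and not 1 cell. SmartSeq, a method that makes and amplifies cDNA along whole transcripts, was used for the libraries, and ERCC spike-in RNAs were added. The libraries have separate tissue records and the same donor entry, and the labels do not settle whether they come from 1 animal or 2, so animal, piece of tissue and amplification cannot be told apart as sources of the spread between libraries. Replicates are numbered 1 and 2 as labelled. With 1 group of 2 libraries there is no test: values are described with their SD over both libraries, and 2 genes are said to differ beyond the spread where the log2 ratio has the same sign in both libraries and its mean is over 2 SD.

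The complexes sit in the inner mitochondrial membrane. Complex II, succinate dehydrogenase, passes electrons from succinate to ubiquinone and is also an enzyme of the citrate cycle. Complex III passes electrons from ubiquinol to cytochrome c, and complex IV passes them from cytochrome c to oxygen. Complexes III and IV pump protons, and complex V uses the proton gradient to make ATP, which muscle spends on contraction and on calcium pumping. All subunits of complex II and cytochrome c are nuclear, whereas complexes III, IV and V each need partner subunits encoded in mitochondrial DNA.

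An expected count is the estimated number of reads of a gene, and the libraries held 32103374 (replicate 1) and 38977618 (replicate 2) of them. TPM is a length-adjusted share of the library, and spike-ins made up 9.44% and 4.54% of it. Skeletal muscle markers were present in both libraries, 9 of 9 detected, and none of 5 heart markers was detected in either. The 35 genes held 513504 counts in replicate 1 and 1009326 in replicate 2, which is 1.69% and 2.66% of gene counts. Counts per gene ran from 3411 (Atp5k) to 75615 (Atp5b) in replicate 1 and from 4741 (Atp5g2) to 205462 (Atp5b) in replicate 2. Exact 95% Poisson intervals on these counts have half-widths of 0.433% to 3.37% of the count, and they cover counting error only, since amplified reads are not separate molecules.

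With detection set at 1 TPM and 5 expected counts, all 35 genes passed in each library and in both. Of all genes, 14.6% passed in replicate 1, 16% in replicate 2 and 10% in both. Their median level was 706 TPM in replicate 1 and 1017 in replicate 2, a mean of 861 ± 219.6 TPM (SD, n = 2). Together they held 2.59% and 4.06% of TPM, or 3.32% ± 1.04. The highest gene in both libraries was Atp5b and the lowest was Cycs, and the ratio between them was 28.1 in replicate 1 and 30.2 in replicate 2. Across the 35 genes Spearman's rho between the TPM of both libraries was 0.82, a description over genes that share 2 libraries.

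**Figure D1:**
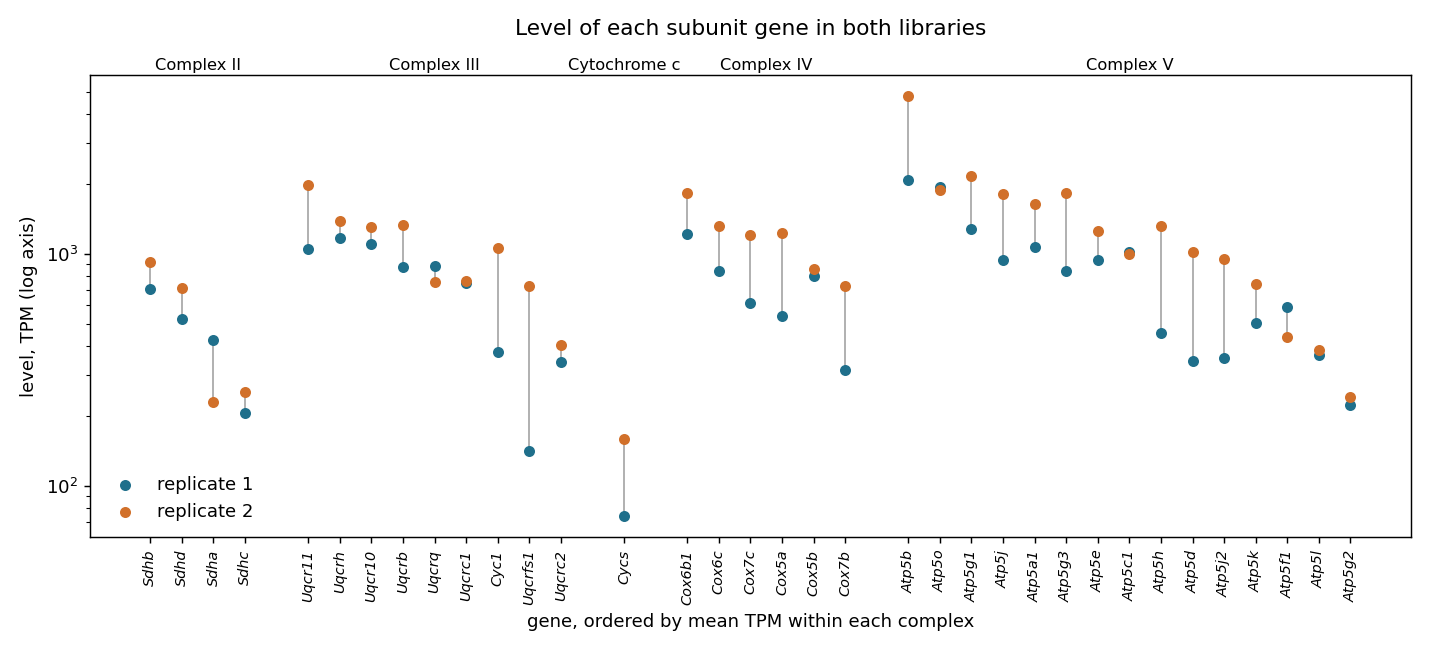
Level in TPM (log axis) of each of the 35 subunit genes, grouped by complex and ordered by mean level within it; points are replicate 1 and replicate 2, joined by a line. Atp5b stands highest at 2083 and 4791 TPM, Cycs lowest at 74.0 and 159 TPM, and most points of replicate 2 lie above those of replicate 1.

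By complex, the median gene of complex V stood at 841 TPM in replicate 1 and 1258 in replicate 2. Complex III had medians of 878 and 1060.1 TPM, and complex IV 706 and 1214 TPM. The medians of these 3 complexes lay within the spread of the libraries: the log2 ratio of complex III to complex V averaged -0.09 ± 0.22 (SD, n = 2), and that of complex IV to complex V -0.15 ± 0.14. Complex II was lower, with medians of 474 and 483 TPM and a log2 ratio to complex V of -1.10 ± 0.39, the same side in both libraries. That ratio is on a per-length scale, and on counts without length it was 0.20. Cytochrome c, a single gene, was lowest, with a log2 ratio to complex V of -3.25 ± 0.37. With TPM of processed copies of the genes added, an alternative chosen after the values were seen, that ratio was 0.61. With the reads of copies counted at the length of the gene, also chosen later, it was -1.71, against -1.22 for complex II. The place of cytochrome c therefore depends on how its copies are counted. The sum over genes was 1859 and 2112 TPM for complex II, 6691 and 9693 for complex III, 4320 and 7169.7 for complex IV, and 12941 and 21429 for complex V. These sums also follow the number of genes listed per complex.

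Within a complex the genes were not at 1 level. The SD of log2(TPM + 1) over the genes of a complex was 0.75 in replicate 1 and 1.02 in replicate 2 for complex II, 1.03 and 0.68 for complex III, 0.66 and 0.47 for complex IV, and 0.95 and 1.10 for complex V. Over all genes detected in both libraries it was 2.22 and 2.21, and over all 35 genes together 1.03 and 1.05. Genes chosen by level vary less: it was 1.32 and 1.28 over 1000 genes in the same range of mean TPM. Over 156 genes within the quartiles of mean TPM of the 35 it was 0.80 and 0.53. The evenness of a complex thus depends on the genes set beside it. Complex IV had the lowest SD in both libraries, and its highest gene was 3.85 and 2.52 times its lowest. On protein-coding transcripts alone it no longer did, with an SD of 1.16 against 0.89 in complex II and 0.86 in complex III. In complex V that ratio was 9.38 and 20.0, from Atp5b down to Atp5g2 in both libraries. Of the 595 pairs among the 35 genes, 285 differed beyond the spread, which is 47.9%, where 41.2% of all pairs among 1000 genes in the same range of mean TPM did. Only 2 of the 34 pairs of neighbours in the order of mean level did, Uqcr11 over Atp5j and Uqcrh over Uqcr10, so most of the fine order is not resolved by 2 libraries.

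Complex II has 4 subunits. Sdha, the flavin-bearing subunit that holds the succinate site, was at 426 TPM in replicate 1 and 229 in replicate 2. Sdhb, the iron-sulfur subunit, was at 706 and 917 TPM, and the membrane anchors Sdhc and Sdhd were at 206 and 253 TPM and at 521 and 713 TPM. Sdhb, Sdhd and Sdhc kept this order in both libraries. Sdhb was 3.43-fold and 3.63-fold over Sdhc and 1.35-fold and 1.29-fold over Sdhd, and Sdhd was 2.53-fold and 2.83-fold over Sdhc, all beyond the spread. Sdha differed between libraries in the other direction from its partners. Its ratio to Sdhb was 0.604 in replicate 1 and 0.249 in replicate 2, and this difference from Sdhb was within the spread of the 2 ratios. The lowest subunit was Sdhc in replicate 1 and Sdha in replicate 2.

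In complex III, the 2 proteins that carry electrons besides mitochondrial cytochrome b differed most between libraries. Uqcrfs1, the Rieske iron-sulfur protein, was at 141 TPM in replicate 1 and 725 in replicate 2, and Cyc1, cytochrome c1, at 378 and 1060.1 TPM. Both were more than 2-fold higher in replicate 2, and Cyc1 exceeded Uqcrfs1 in both libraries, 2.68-fold and 1.46-fold, within the spread of that ratio. The core proteins Uqcrc1 and Uqcrc2, which build the matrix side of the complex, were steadier: 746 and 759 TPM for Uqcrc1, and 341 and 403 TPM for Uqcrc2. Uqcrc1 was 2.19-fold and 1.88-fold over Uqcrc2, beyond the spread, although both are core subunits.

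The small subunits of complex III were its 5 highest genes in replicate 1, and 4 of them were its highest in replicate 2. Uqcrh, the acidic hinge protein at the docking side of cytochrome c, was at 1165 and 1383 TPM. Uqcr10 was at 1102 and 1306 TPM and Uqcr11 at 1051 and 1976 TPM. Uqcrb was at 878 and 1327 TPM and Uqcrq at 888 and 755 TPM, the second of which was lower in replicate 2. The 5 small subunits had a median of 1051 TPM in replicate 1 and 1327 in replicate 2, against 544 and 581 TPM for the pair of core proteins. Cycs, the somatic cytochrome c that carries electrons from complex III to complex IV, was at 74.0 and 159 TPM, and Cyc1 was 5.11-fold and 6.68-fold over it. Rows of its processed copies held more reads than Cycs itself, and their values are given with the copies.

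In complex IV, Cox6b1, which faces the intermembrane space, was highest in both libraries at 1211 and 1832 TPM. Cox7b was lowest in both at 315 and 727 TPM. The ratio of the pair, 3.85 and 2.52, was beyond the spread. Cox6c was at 845 and 1322 TPM and Cox7c at 611 and 1206 TPM, both of them single-pass membrane subunits. Cox5a and Cox5b, subunits on the matrix side, changed order: Cox5a was at 537 and 1222 TPM, and Cox5b, which binds zinc, at 801 and 860.4 TPM. All 6 genes were higher in replicate 2, Cox5b by the least.

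The head of complex V has 5 subunits. Atp5b, the catalytic beta subunit, was at 2083 TPM in replicate 1 and 4791 in replicate 2, and Atp5a1, the alpha subunit, at 1069 and 1644 TPM. In the protein, alpha and beta occur in equal number, yet Atp5b was 1.95-fold and 2.91-fold over Atp5a1, beyond the spread. Atp5c1, the gamma subunit of the rotating stalk, was at 1020.4 and 998 TPM, Atp5d (delta) at 344 and 1017 TPM, and Atp5e (epsilon) at 939 and 1258 TPM. Atp5c1 was close to level between the libraries and Atp5d was not. Atp5b was 6.05-fold and 4.71-fold over Atp5d, also beyond the spread.

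The peripheral stalk holds the head still against the rotor. Its OSCP subunit, Atp5o, was at 1936 and 1882 TPM, second only to Atp5b in replicate 1. Atp5f1 (subunit b) was at 591 and 436 TPM, Atp5h (subunit d) at 454 and 1315 TPM, and Atp5j (coupling factor F6) at 936 and 1801 TPM. Within this stalk, Atp5o was higher than the other 3 genes in both libraries, whereas Atp5f1 and Atp5h changed order. The small membrane subunits Atp5k (e), Atp5j2 (f) and Atp5l (g) were at 504 and 743 TPM, 356 and 945 TPM, and 366 and 383 TPM. On gene TPM they were lower than the stalk and head as a group, with medians of 366 and 743 TPM against 763 and 1558 TPM for the stalk. On protein-coding transcripts alone, Atp5j was at 176 and 361 TPM and Atp5f1 at 238 and 150 TPM. In replicate 1 the stalk median was then no longer above that of the membrane subunits. Atp5l itself was at 1828 and 1942 TPM with its processed copies added.

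Subunit c, which forms the proton-carrying ring, is encoded by 3 genes whose precursor proteins differ in the import sequence and yield the same mature protein. The gene models used here encode 136 residues for Atp5g1, 146 for Atp5g2 and 141 for Atp5g3, and the last 78 residues are the same in all 3. The 234 coding bases of these 78 codons are printed 5′ to 3′ on the coding strand. Reads that lie within this stretch tell the 3 genes apart only by the bases that differ. Capitals mark the 63 positions where the 3 genes are not all alike.
Atp5g1: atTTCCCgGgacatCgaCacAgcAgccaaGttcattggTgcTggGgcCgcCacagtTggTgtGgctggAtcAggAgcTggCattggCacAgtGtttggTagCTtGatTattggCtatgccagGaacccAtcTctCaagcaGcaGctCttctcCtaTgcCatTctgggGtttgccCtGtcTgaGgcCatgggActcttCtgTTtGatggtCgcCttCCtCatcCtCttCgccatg
Atp5g2: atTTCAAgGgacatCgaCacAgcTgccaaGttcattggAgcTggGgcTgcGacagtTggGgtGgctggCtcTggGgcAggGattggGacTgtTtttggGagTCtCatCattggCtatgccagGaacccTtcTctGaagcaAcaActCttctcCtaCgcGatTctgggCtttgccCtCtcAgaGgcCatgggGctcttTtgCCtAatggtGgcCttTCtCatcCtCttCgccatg
Atp5g3: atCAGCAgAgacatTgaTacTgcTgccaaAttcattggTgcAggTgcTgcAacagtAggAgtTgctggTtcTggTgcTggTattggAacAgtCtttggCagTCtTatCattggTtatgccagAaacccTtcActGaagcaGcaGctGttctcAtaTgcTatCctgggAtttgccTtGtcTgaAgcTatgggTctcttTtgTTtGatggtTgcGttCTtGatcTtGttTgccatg
They come from GENCODE transcripts Atp5g1-202 on chromosome 11, Atp5g2-202 on chromosome 15 and Atp5g3-201 on chromosome 2, all on the minus strand of GRCm38. Atp5g1 and Atp5g2 were identical at 84.6% of these bases, Atp5g1 and Atp5g3 at 78.6%, and Atp5g2 and Atp5g3 at 77.4%. The longest identical run between any pair was 20 bases. The deposited effective lengths imply reads of 100 bases, so a read lying within this stretch differs between the 3 genes.

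Atp5g1 was at 1279.9 TPM in replicate 1 and 2155 in replicate 2, Atp5g3 at 841 and 1821 TPM, and Atp5g2 at 222 and 240.1 TPM. As shares of subunit c TPM, Atp5g1 gave 52.9% ± 2.49 (SD, n = 2), Atp5g3 39.5% ± 5.16 and Atp5g2 7.59% ± 2.68. With processed copies added the Atp5g2 share was 13.7%, and 86.4% of its 100-base windows also occur in another annotated gene. Atp5g1 and Atp5g3 both exceeded Atp5g2 beyond the spread, at 5.76-fold and 8.98-fold for Atp5g1 and 3.79-fold and 7.59-fold for Atp5g3. Between Atp5g1 and Atp5g3, ratios of 1.52 and 1.18 were within the spread. The summed level of the ring genes, 2343 TPM in replicate 1 and 4216 in replicate 2, stood above that of Atp5a1 in both libraries.

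Nearly all of these genes were higher in replicate 2. The log2 ratio of replicate 1 over replicate 2 was taken on TPM + 1 and centred on the median of the 4872 tested genes, those that reached 10 expected counts in each library. Of the 35 genes, 32 were higher in replicate 2, where 50% of all tested genes were, and 30 were higher on TPM as deposited, where 48.6% were. The median was -0.64. Of the 35, 11 were at least 2-fold higher in replicate 2 (24% of all tested genes), none was at least 2-fold higher in replicate 1 (23.6%), and 24 stayed within 2-fold (52.4%). Among the 1000 tested genes in the same range of mean TPM, from 116 to 3437, the median was -0.10 and 53.8% were higher in replicate 2. Of them, 17.9% were at least 2-fold higher there, 13.7% were at least 2-fold higher in replicate 1 and 68.4% stayed within 2-fold. Their median levels, 256.5 and 260.4 TPM, were below those of the 35 genes. A closer set was the 156 tested genes within the quartiles of mean TPM of the 35, with a median ratio of -0.13. Of these, 56.4% were higher in replicate 2, 12.8% at least 2-fold higher there, 9.62% at least 2-fold higher in replicate 1 and 77.6% within 2-fold.

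The 11 genes were Uqcrfs1 (-2.39), Atp5d (-1.60), Atp5h (-1.57), Cyc1 (-1.52), Atp5j2 (-1.45), Cox7b (-1.25), Atp5b (-1.24), Cox5a (-1.23), Atp5g3 (-1.15), Cycs (-1.13) and Cox7c (-1.02), each as the centred log2 ratio. They come from complexes III, IV and V and cytochrome c, with none from complex II. With copies added, Cycs was at -0.93 and the count was 10. Just inside the limit of 2-fold were Atp5j at -0.98 and Uqcr11 at -0.95. The 3 genes higher in replicate 1 were Sdha (0.85), Atp5f1 (0.40) and Uqcrq (0.19), and Atp5o, Atp5c1 and Uqcrc1 were within 0.07 of 0. By complex, the median ratio was -0.38 for complex II, -0.29 for complex III, -0.85 for complex IV and -0.66 for complex V.

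**Figure D2:**
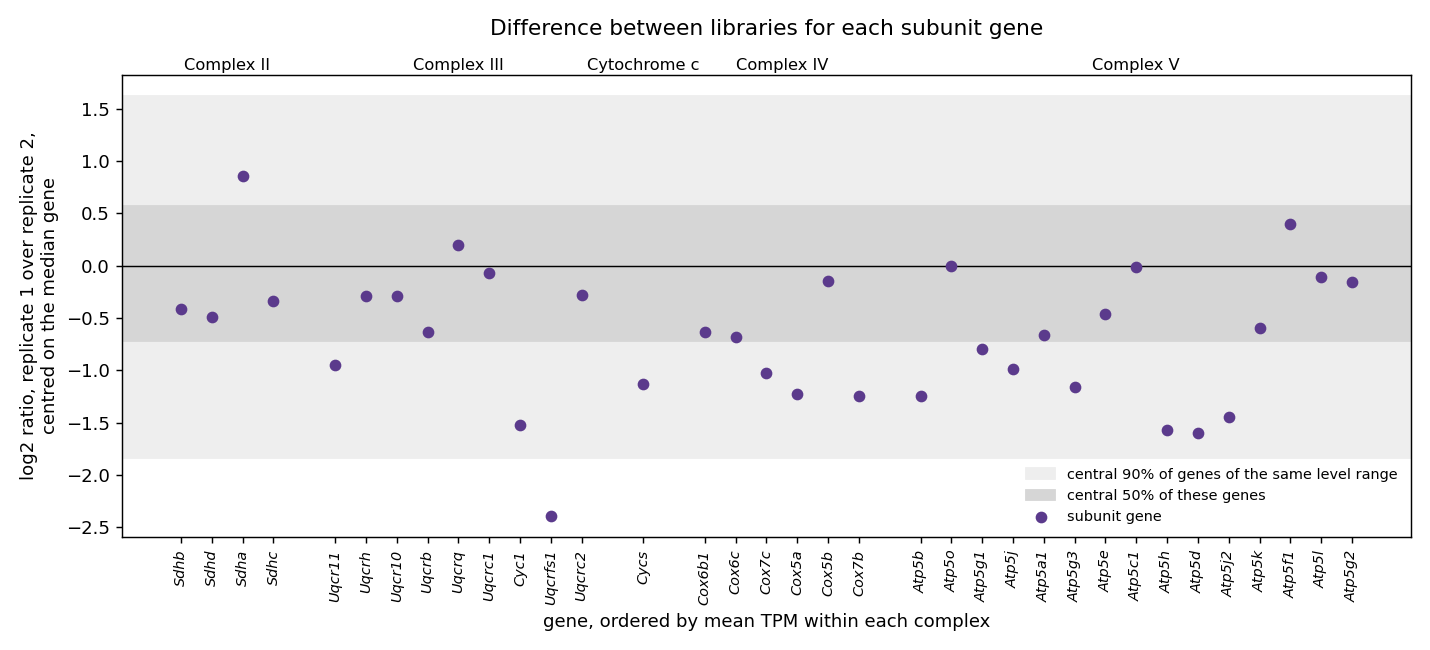
Centred log2 ratio of replicate 1 over replicate 2 for each subunit gene (points), in the order of the plot of levels; the dark and light bands hold the central 50% and 90% of 1000 tested genes in the same range of mean TPM. Most points lie below 0, Uqcrfs1 lies outside the light band at -2.39, and Sdha stands highest at 0.85.

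The centred ratio also had a lower SD over the 35 genes than over genes in the same range of mean TPM. It was 0.66 over the 35 and 1.19 over the 1000 genes of that range, with 1.82 over all tested genes. Over the closer set of 156 genes the SD was 1.13, although a larger share of that set stayed within 2-fold. Across the 35 genes, Spearman's rho was -0.00 between gene length and the centred ratio and -0.13 between mean TPM and the centred ratio. Longer genes did have more counts (rho 0.56) and lower TPM (rho -0.38). These are descriptions over genes of the same libraries.

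Several other measures differed between the libraries in the same comparison. Muscle fibre markers, with 9 of 9 detected in both, summed to 122452 TPM in replicate 1 and 137254 in replicate 2 with a median centred ratio of -0.38, and slow fibre markers, with 5 of 6 detected in both, summed to 2178 and 2980 TPM. Markers of other cell types were mostly higher in replicate 1. The fat list had 4 of 6 detected in both and summed to 2513 and 1041 TPM, with Cfd at 1071 and 39.3 TPM and Adipoq at 368 and 83.3. Fabp4 (876 and 717 TPM) and Lpl (198 and 182) were close to level, Plin1 went the other way (0.19 and 19.3), and Lep was at 0 in both. The fibroblast list had 6 of 6 and summed to 7267 and 4784 TPM, the endothelial list 3 of 5 and 489 and 235 TPM, the macrophage list 2 of 5 and 444 and 254 TPM, and the nerve list 1 of 5 and 245 and 14.0 TPM. The erythroid list had 4 of 6 detected in both and summed to 3292 and 3629 TPM. The brown fat list had 1 of 5 detected in both and summed to 315 and 479 TPM. That 1 was Cox7a1, which muscle also expresses, at 215 and 479 TPM, while Cidea was at 99.7 and 0 TPM and Ucp1, Elovl3 and Dio2 were at 0 counts in both. The heart list summed to 0.18 and 0.17 TPM. In tissue RNA, fewer cells of a type and less RNA per cell cannot be told apart. The part of these differences in the ratios of the subunit genes was not tested.

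The spike-ins gave another scale. When 25 spike-ins set the centre, the median ratio of the 35 genes was -1.58 and 30 of them were at least 2-fold higher in replicate 2, because the 2 centres differ by 0.94. Ratios relative to other genes are therefore the ones described here.

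The gene tables sum over transcripts, and the transcript tables show which forms carried the level. The 35 genes had 151 annotated transcripts, and the leading transcript was the same in both libraries for 34 genes, all but Cox7b. In 27 genes, transcripts annotated as protein coding held over 90% of the gene's TPM in both libraries. The remaining 8 genes lie in complexes III, IV and V. Since a read of 100 bases can fit several overlapping transcripts, these shares are estimates by the authors' model.

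Atp5j had the smallest coding share, 18.8% in replicate 1 and 20.1% in replicate 2. Its leading transcript, Atp5j-208, is annotated as a retained intron and held 81.0% and 79.1% of the gene's TPM. On coding transcripts alone Atp5j was at 176 and 361 TPM, not 936 and 1801. In Atp5f1 the leading transcript, Atp5f1-203, is annotated as a target of nonsense-mediated decay, at 59.4% and 65.0%, and coding transcripts gave 40.2% and 34.5%. In Cox5b a short processed transcript, Cox5b-205, led with 58.0% and 60.2%, and coding transcripts gave 41.9% and 39.7%. Cox7b was led by the retained-intron form Cox7b-203 in replicate 1 (64.2%) and by the coding form Cox7b-201 in replicate 2 (46.8% against 45.9%). Smaller non-coding shares were found in Atp5b, with coding shares of 77.0% and 68.9%, and in Uqcrq, with 75.5% and 77.5%. Uqcr10 and Cox7c were below 90% in replicate 2 only, at 87.8% and 87.5%.

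**Figure D3:**
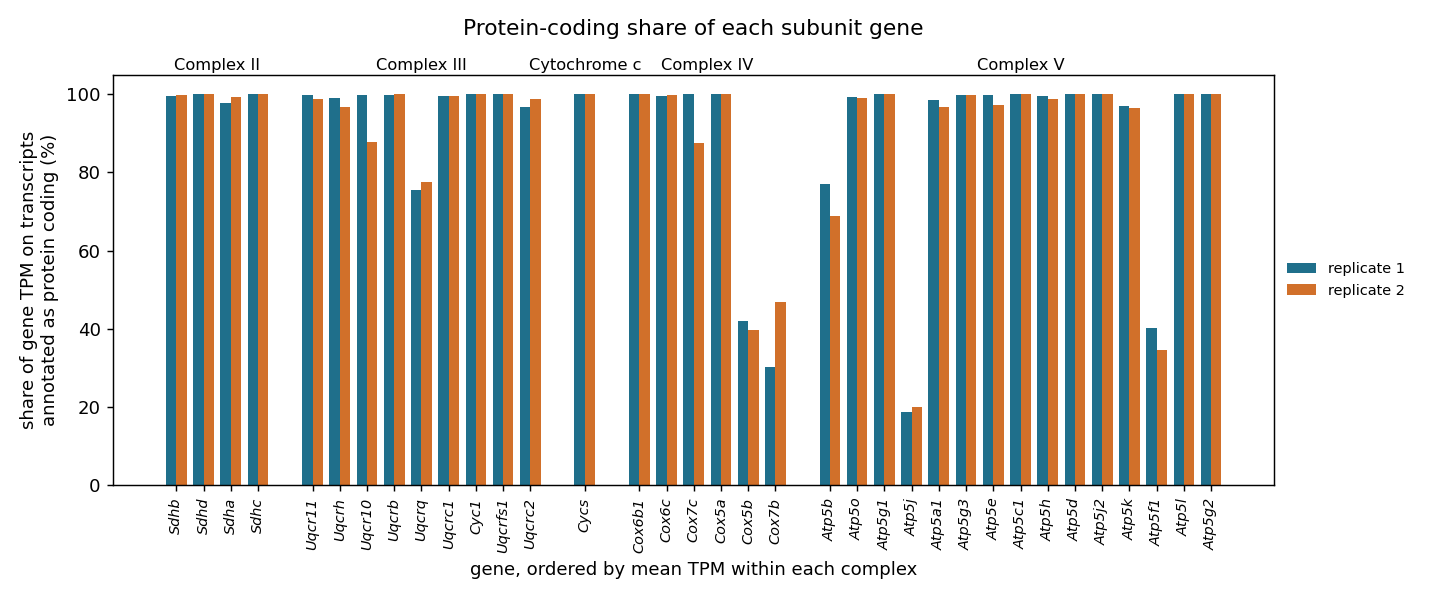
Share of each subunit gene's TPM on transcripts annotated as protein coding, in percent, for replicate 1 and replicate 2 (bars from 0). Most genes stand near 100%, and Atp5j stands lowest at 18.8% and 20.1%.

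Restricting to coding transcripts, an alternative added after the values were seen, left the median ratio between libraries at -0.64 and widened the spread within complexes IV and V. The SD of log2 level within complex IV went from 0.57 to 1.16, as Cox5b and Cox7b became lower, and that within complex V from 1.02 to 1.17. In complex V the genes with a coding share under 90% were Atp5b, Atp5f1 and Atp5j.

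Atp5c1 was assigned to 2 main coding forms that differ in the last coding exon. The gamma subunit gene is known to skip a short exon near its end in heart and skeletal muscle, which changes the last residues of the protein. The skipped exon of GENCODE transcript Atp5c1-203 lies at chr2:10056770-10056806 of GRCm38, on the minus strand, and its 37 bases follow the shared exon. The end of the coding sequence is printed for both forms, in lower case for the shared exon and in capitals from the splice junction to the stop codon.
Atp5c1-201, exon skipped: tggggctgctgctctGTAA
Atp5c1-203, exon included: tggggctgctgctctGGATTAA
The skipped form encodes 297 residues and held 81.6% of the gene's TPM in replicate 1 and 88.7% in replicate 2. The included form encodes 298 residues and held 18.4% and 11.3%. The skipped form led in both libraries. The annotated forms also differ in the length of the first exon, 80 bases against 163, and slightly in the last, so the split is not a measure of the skipped exon alone.

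Some reads of these genes may be counted under processed copies elsewhere in the genome. To see where, the leading transcript of each gene was cut into all windows of 100 bases, and each window was looked for in every other annotated transcript. In 21 genes no window was shared, and in 14 at least 1 was, with 24 other genes, 18 of them annotated as pseudogenes. The shared part exceeded 50% of windows in 3 genes: Atp5g2 (86.4%), Atp5l (61.3%) and Atp5g1 (57.3%). This search was chosen after the values were seen.

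Cycs shared 24.7% of its windows with Gm10053, a gene on chromosome 19 (chr19:24875686-24876631) annotated as protein coding. Gm10053 was assigned 9577 expected counts in replicate 1 and 18094 in replicate 2, and the processed pseudogene Gm10108 on chromosome 5 was assigned 3797 and 10100.2, while Cycs itself had 5461 and 14989. With these copies added, the level came to 1246 and 2316 TPM, against 74.0 and 159 TPM for the Cycs row alone. Most of that rise comes from the short length of the copy rows: with the same reads counted at the length of Cycs, its level was 255 and 457 TPM, and its log2 ratio to complex V was -1.71. The tables do not show which of these rows the RNA came from. In Atp5l, the processed pseudogene Gm10221 on chromosome 5 was assigned 11491 and 15694 counts against 3679 and 4935 for Atp5l. With its copies added, Atp5l went from 366 and 383 TPM to 1828 and 1942 TPM. Gm10175, on chromosome 7, was assigned 2439 and 5114 counts against 3425 and 4741 for Atp5g2. Copies held less beside Cox7c, with 1009 and 2777 counts against 6575 and 15558, and beside Atp5g1, where Gm10039 held 1203 and 3361 counts against 15838 and 33837.

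**Figure D4:**
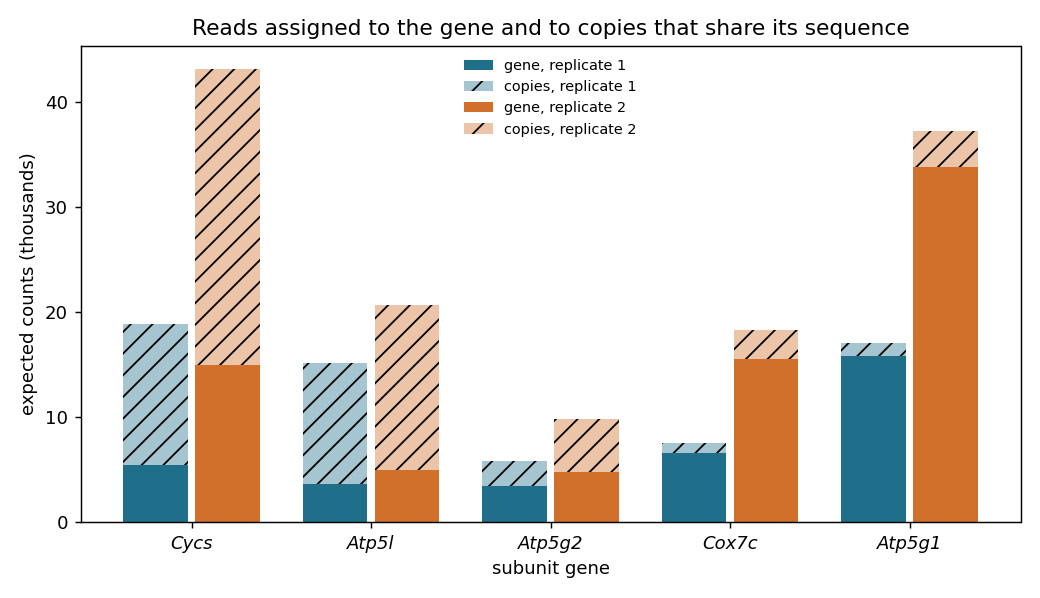
Expected counts (axis in units of 1000) assigned to a subunit gene (solid) and to annotated copies that share 100-base windows with it (hatched, stacked on top), per library, for the 5 genes with the most counts on copies. For Cycs and Atp5l the hatched part is larger than the solid part in both libraries.

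Genes whose symbol or synonym is a subunit's name with a pseudogene ending held little. The 5 of these with the most counts were Gm12231 for Atp5f1 (117 and 85.1 counts), Gm10012 for Cox7c (57.1 and 172), Gm11273 for Cox5b (64.5 and 98.3), which the annotation types as protein coding, Atp5l-ps1 (7.46 and 6.37) and Uqcrh-ps1 (6 and 3.94). Other overlaps exist without a copy: Cox5a shares windows with the bidirectional lncRNA Gm26631 and Atp5o with the antisense gene D430001F17Rik. Gm26631 held 24.0 and 62.4 counts, and D430001F17Rik held 0 in both libraries. Strand use in the authors' counting is not given in the sources used here, so reads of such overlapping genes may not be told apart.

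The promoters of these genes are known for binding sites of NRF1, ETS-family factors such as GABPA, and CREB. RefSeq promoter windows of GRCm38.p6, from 250 bases before to 50 after the start, were matched for 28 of the 35 genes. The NRF1 motif, searched on both strands as GCGC, then A, any base and GCGC, was in the window of 9 of the 28 genes (32.1%), against 5.19% of all 27025 genes with a window and 7.17% of the 17492 coding genes. The ETS motif CCGGAAG was in 10 (35.7%), against 9.93% of all genes and 12.9% of coding genes. TGACGTCA, the CREB motif, was in 2 (7.14%), against 2.03% of all and 2.54% of coding genes. The full palindrome, a subset of the NRF1 matches with T as the free base, was in 3 (10.7%). It was in 1.07% of all and 1.47% of coding genes. A match describes letters in the window and shows no binding.

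The 3 genes with the full palindrome were Atp5k, Atp5g2 and Uqcrc1. Each is shown with 30 bases in the direction of the gene, with the motif in capitals.
Atp5k, chr5:108434430-108434459, minus strand: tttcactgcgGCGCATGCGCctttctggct
Atp5g2, chr15:102671070-102671099, minus strand: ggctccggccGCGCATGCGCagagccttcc
Uqcrc1, chr9:108936668-108936697, plus strand: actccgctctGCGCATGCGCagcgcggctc
The motif began 50 bases upstream of the start in Atp5k, 42 upstream in Atp5g2 and at base 31 downstream in Uqcrc1. Atp5h, Sdhd and Atp5k held both the NRF1 and the ETS motif, and Sdha held 3 NRF1 matches. For Atp5h the NRF1 and ETS matches are shown in this order, 141 and 38 bases upstream.
Atp5h, chr11:115420041-115420070, minus strand: gaccccgacgGCGCAGGCGCcgcgcccgcc
Atp5h, chr11:115419939-115419968, minus strand: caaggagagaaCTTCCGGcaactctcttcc
The CREB motif was in Cycs, 169 bases upstream, and in Uqcrfs1, 29 bases upstream. Their centred ratios were -1.13 and -2.39, where the median of the 35 genes was -0.64. A relation of motif to ratio was not tested.
Cycs, chr6:50566720-50566749, minus strand: aggccagagggTGACGTCAcgcacgtccac
Uqcrfs1, chr13:30545327-30545356, minus strand: cggcgtcgcgcTGACGTCAcaaaccctgcg
Genes with the NRF1 motif were found at both ends of the comparison between libraries, from Atp5h at -1.57 to Sdha at 0.85.

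Partners of these subunits were read from lists of related genes. The mitochondrially encoded partners, 6 of 6 detected in both libraries, were far higher in TPM: mt-Atp6 and mt-Atp8, the complex V partners, were at 12243 and 14327 TPM and at 9087 and 9810 TPM. For complex IV, mt-Co1 was at 6990 and 5856 TPM, mt-Co2 at 3944 and 4649 TPM and mt-Co3 at 2525 and 3358 TPM. Their median centred ratio was -0.21. Of the cytochrome oxidase paralogues, genes with tissue-specific copies, 8 of 9 were detected in both. Of the 8, 7 were higher in replicate 2, against 50% of all tested genes, with a median of -0.62. The other, Cox7a2l, was at 348 and 155 TPM, a ratio of 1.12. The muscle form Cox6a2 was at 879 and 1402 TPM and Cox4i1 at 1036 and 1093 TPM. Cox8b, the heart and muscle form of subunit 8, was at 341 and 1520.3 TPM with a ratio of -2.19, and Cox8a, its ubiquitous partner, was at 325 and 751 TPM.

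Complex I nuclear subunits, the entry point of electrons from NADH, gave a like picture in direction and median ratio. Of these, 36 of 36 were detected in both, and their median ratio was -0.60. In replicate 2, 32 of the 36 were higher, against 50% of all tested genes. Only 8 of the 36 were at least 2-fold higher there. That share lies below the 24% of all tested genes. It lies above the 17.9% of genes in the range of mean TPM of the subunit genes. The highest complex I genes were Ndufc1 at 965 and 1379 TPM, Ndufb9 at 721 and 1192 TPM and Ndufb8 at 807 and 1094 TPM. Ndufs1, the largest iron-sulfur subunit, went the other way at 418 and 104.96 TPM, a ratio of 1.94, and Ndufa1 was at 382 and 1201 TPM, a ratio of -1.69. Members of neighbouring pathways were nearer to level between libraries, with medians of -0.37 over 13 glycolysis genes, -0.30 over 13 citrate cycle genes and 0.02 over 6 carriers and channels. Among carriers, Slc25a4, the muscle ADP/ATP carrier, was at 2609 and 3582 TPM, and its paralogue Slc25a5 at 925 and 498 TPM.

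Of 4 listed proteins that attach to complex V without being core subunits, 3 were detected in both libraries, all more than 2-fold higher in replicate 2. Of all tested genes, 24% were at least 2-fold higher there, and 17.9% of genes in the range of mean TPM of the subunit genes. Atpif1, the inhibitor of ATP hydrolysis, was at 205 and 599.7 TPM, and the small membrane proteins Usmg5 and Atp5mpl were at 769 and 2048 TPM and at 679.9 and 1865 TPM. Their ratios were -1.59, -1.45 and -1.49, and the fourth gene of the list, Atp5s, was not detected in both.

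Assembly factors were fewer in detection, and the medians of their lists were lower than those of the subunits they serve. For complexes II to V in turn these medians were 3.62, 34.985, 10.2 and 112 TPM in replicate 1 and 5.58, 32.3, 33.4 and 76.2 TPM in replicate 2. Single factors overlapped the subunits, with Uqcc2 above Uqcrfs1 in both libraries. For complex II none of 4 was detected in both: Sdhaf2 had 2095 counts in replicate 1 and 0 in replicate 2, Sdhaf1 had 0 and 833, and Sdhaf4 had 3 and 925. For complex III 3 of 6 were detected in both, led by Uqcc2 at 147 and 756 TPM with a ratio of -2.40, followed by Uqcc3 at 139 and 72.6 TPM. For complex IV 7 of 18 were, led by Cox14 at 319 and 386 TPM and Cox17, a copper carrier, at 101 and 285 TPM. For complex V all 5 were, with Tmem70 at 7.96 and 172 TPM and Atpaf2, which helps form the head, at 161 and 76.2 TPM. Regulators of mitochondrial gene expression were detected in both libraries in 3 of 14 cases: Polrmt, the mitochondrial RNA polymerase, was at 58.4 and 75.02 TPM, Tfam, which packages mitochondrial DNA, at 97.8 and 28.1 TPM, and the coactivator Ppargc1b at 50.01 and 15.4 TPM. Tfam and Ppargc1b were thus higher in replicate 1, with ratios of 1.72 and 1.59, and Polrmt was higher in replicate 2, at -0.40. A relation of these ratios to those of the subunit genes was not tested. At 13 pg of RNA, a gene found in 1 library and at 0 in the other is not shown to differ between the tissue samples.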

How the data were processed

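The authors deposited, for each library, a gene table and a transcript table; per the file headers these have RSEM columns, and per the text deposited with them they use mm10 and GENCODE M4. Expected counts are deposited by the authors without normalization. TPM values were scaled by the authors to a fixed sum over all rows, spike-ins included, and FPKM values are deposited beside them. The percent of a gene's TPM on each transcript is also deposited, and coding shares were summed from transcript TPM. For the aligner and the strand setting, no statement is given in the sources used here. The gene tables held 69691 rows: 43346 genes, 96 spike-ins, 1 phiX row and 26248 numbered rows, and the last 2 kinds were left out.

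Symbols and coordinates came from GENCODE M21 (GRCm38) by identifier, which named 42462 genes. Centred log2 ratios used a pseudocount of 1 over genes reaching 10 counts in each library, and were checked on simulated data. The members and lists were chosen with earlier results of these data known. All 35 members were described. Of each related list, the rule named the 3 genes of highest mean TPM and the 2 of largest centred ratio. It also named the 5 pseudogenes with most counts, and examples in the text are from these. Exceptions are copies found by shared windows, Cox7a2l, and the fat and brown fat markers, chosen after their values were seen. Python 3.11.15, numpy 2.4.6, pandas 2.3.3, scipy 1.17.1, matplotlib 3.10.9 and edgeR 4.0.16 in R 4.3.3 (normalization factors only) were used. Alternatives changed the unit, pseudocount, filter, centring, summary over members, and each library left out. Sequences came from GENCODE M21 transcripts and RefSeq promoter windows.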

Additional observations from a re-analysis of the deposited data

How the results depend on the processing

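Of the recomputed values that have a spread between libraries, 61 stayed within 1 SD of the main value, 20 moved further and 2 changed side. Changing side was counted only where the main value was over 2 SD. Smaller main values that changed sign, as for complexes III and IV on coding transcripts, are not among the 2. Some of the 61 were fixed in advance. With 2 libraries, leaving 1 out cannot pass 1 SD, and FPKM keeps the ratios of TPM within a library. Of the recomputed values without such a spread, judged by a fixed limit (0.1 on the log2 scale, or 1.5 times for counts), 44 stayed within it and 2 moved. The shift of the 35 genes toward replicate 2 held its direction under every scaling run, and it was largest on spike-ins, with a median of -1.58 and 30 genes at least 2-fold higher. On expected counts without length, the log2 ratio to complex V was 0.20 for complex II, -0.56 for complex IV and -0.91 for cytochrome c, the SD within complex V was 1.497, and the Atp5g1 share was 47.8%. With sums in place of medians the ratios to complex V were -3.07 for complex II, -1.05 for complex III, -1.58 for complex IV and -7.26 for cytochrome c, as complex V has more genes listed. With protein-coding transcripts only, a choice made after seeing the data, they were -0.57, 0.33, 0.20 and -2.70, and the SD was 1.16 within complex IV and 1.17 within complex V. With copies added, also chosen after seeing the data, the cytochrome c ratio was 0.61, the SD within complex V 0.88, and the shares of Atp5g2 and Atp5g3 were 13.7% and 34.1%. With the reads of copies counted at the length of the gene, likewise chosen later, these were -1.71 for cytochrome c, 0.87 for complex V and 12.6% for Atp5g2. With 1 library left out, the ratio to complex V ranged from -1.38 to -0.83 for complex II, from -0.25 to 0.06 for complex III, from -0.25 to -0.05 for complex IV and from -3.51 to -2.99 for cytochrome c. No paired analysis was possible because there is 1 group. Counting error was at most 3.37% of a subunit gene's count.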
